A study of Mus musculus with 9 samples.

Results

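The Notch genes described here were 10 genes, taken by name from the 56481 gene symbols of the deposited count table: the receptors Notch1, Notch2 and Notch3, the ligands Jag1, Jag2 and Dll1, and the transcriptional targets Hes1, Hey1, Hey2 and Heyl. They were read in 9 mouse RNA sequencing libraries, 3 for each of 3 kinds of cells. The first were primary neural crest cells from mouse embryos at E13.5 (pNCC), grown in DMEM with 10% fetal bovine serum. The second were cells induced from neural crest cells (iCEC) in DMEM/F12 with 5% knockout serum replacement and SB431542 at 5 µM, which blocks TGF-β receptor signalling. Their colonies were characterised on day 12, and the labels do not state the day on which RNA was taken. The third were cells labelled primary corneal endothelial cells (pCEC), kept in the same serum medium as pNCC, with no age or strain in the labels. Replicates 2 and 3 of pCEC are labelled total RNA and the other 7 libraries polyA RNA. The labels do not say whether replicates were separate animals or cultures, so the p-values cover no more than how these libraries vary.

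Notch receptors are surface proteins that are bound by Jagged or Delta-like ligands on a neighbouring cell. Binding leads to cleavage of the receptor by an ADAM protease and then by γ-secretase, and the freed intracellular part enters the nucleus, where it joins the DNA-binding protein RBPJ and a Mastermind coactivator. HES and HEY genes, which encode basic helix-loop-helix repressors, are the usual direct targets. In stratified epithelia Notch signalling between neighbouring cells is known for its part in differentiation, and in vessel walls for its part in smooth muscle cells and pericytes.

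The depth was lowest in pCEC 3, with 27389292 counts, and highest in iCEC 1, with 47967113. Levels are given as CPM, a gene's share of a library's total count on the usual per-million scale, with the mean ± SD over 3 libraries. Groups were compared with edgeR's quasi-likelihood test on the 6 libraries of each pair of groups, with p-values adjusted by Benjamini-Hochberg over all genes tested and a threshold of 0.05. The standard error (SE) of a log2 fold change is its size divided by the square root of the test's F statistic. The iCEC libraries were the least alike: the root mean square difference in log2 CPM between 2 libraries of a group was 1.17 to 1.80 in iCEC, 0.575 to 0.777 in pNCC and 0.759 to 0.935 in pCEC. Summed levels of 15 surface epithelium markers were 96.3 to 149 CPM in pNCC, 16314 to 23562 CPM in iCEC and 36255 to 48693 CPM in pCEC. The corneal epithelial keratin Krt12 stood at 8974 to 11145 CPM in pCEC, at 0 to 0.0298 CPM in iCEC and at 0 in pNCC. Of the 20 corneal endothelium markers, 19 were in the table and each had counts in every group, with sums of 1385 to 1521 CPM in pNCC, 2776 to 3062 CPM in iCEC and 1789 to 2185 CPM in pCEC. Of the 19, 6 lay above and 6 below pNCC in iCEC without overlap, where 25.1% of all genes tested lay above and 25.9% below. In pCEC 8 lay above and 6 below, where 30.8% of all genes tested lay above and 39.9% below.

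Against pNCC, 4 of the 9 Notch genes that passed the filter on low counts were higher in iCEC (Notch1, Notch3, Jag2 and Dll1), 1 was lower (Heyl) and 4 did not pass the test. Over all 16293 genes tested, 31.3% were called, 16.1% as higher and 15.1% as lower. In pCEC, 6 of 9 were higher (the same 4 genes with Jag1 and Hes1), 1 was lower (Heyl) and 2 did not pass, where 62.5% of 16608 genes were called, 30.3% as higher and 32.2% as lower. Between iCEC and pCEC, 2 of the 8 genes tested were called, Notch3 and Jag2, both lower in iCEC, against 20.4% of 16278 genes, 10.5% as higher and 9.92% as lower. Both comparisons with pNCC share its 3 libraries. Hey2 passed the filter in no comparison, and Heyl did not pass it between iCEC and pCEC. In bulk samples such as these, fewer cells of a type and less RNA per cell cannot be told apart.

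In the values of these same libraries every called Notch gene stood apart without overlap, and so did some Notch genes that were not called. The iCEC libraries all lay above the pNCC libraries for 6 of the 10 Notch genes (Notch1, Notch3, Jag1, Jag2, Dll1 and Hes1) and below them for Hey2 and Heyl. Among all genes tested, which do not include Hey2, 51% did not overlap, 25.1% with iCEC above and 25.9% with iCEC below. The pCEC libraries lay above pNCC for the same 6 genes and below for Notch2, Hey2 and Heyl, where 70.7% of all genes did not overlap, 30.8% above and 39.9% below. The iCEC libraries all lay below pCEC for Notch3 and Jag2 and above pCEC for none of the 10, where 43.9% of all genes did not overlap, 24.4% above and 19.4% below. The median log2 fold change of the tested Notch genes was 1.20 for iCEC against pNCC, 1.47 for pCEC against pNCC and -0.14 for iCEC against pCEC. The medians over all genes tested were 0.05, -0.01 and 0.04.

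**Figure D1:**
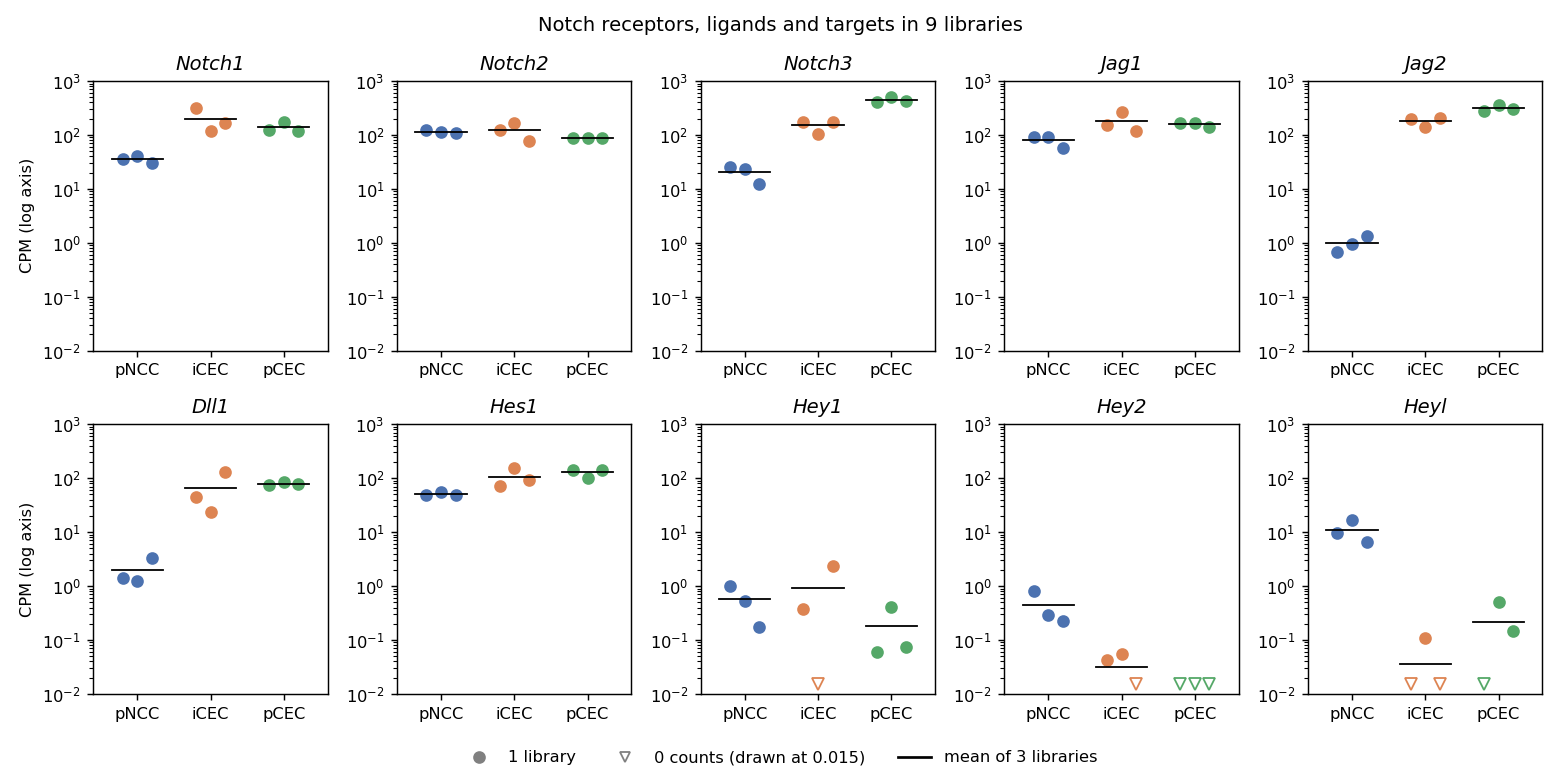
Levels of the 10 Notch genes in CPM on a log axis, with 1 point per library, open triangles for libraries with 0 counts and a line at the mean of 3 libraries. Jag2 and Dll1 stand far above pNCC in every iCEC and pCEC library, Notch2 lies between 77.9 and 166 CPM in all 9 libraries, and Heyl lies between 6.45 and 16.8 CPM in pNCC and below 1 CPM elsewhere.

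Among the receptors, Notch1, which takes part in the differentiation of epidermal cells, was measured at 35.2, 41.2 and 30.8 CPM in pNCC 1 to 3. It stood at 318, 117 and 169 CPM in iCEC and at 121, 173 and 119 CPM in pCEC. Every iCEC and pCEC library lay above every pNCC library, iCEC 1 was the highest of all, and the iCEC and pCEC ranges overlapped. Notch1 was 5.68-fold higher in iCEC than in pNCC (log2 fold change 2.51, SE 0.397, adjusted p = 0.00631) and 4.23-fold higher in pCEC (2.08, SE 0.185, adjusted p = 7.11e-05). Between iCEC and pCEC the log2 fold change of 0.42 (SE 0.393) did not pass (adjusted p = 0.486), and it was -0.09 without iCEC 1. The gene lies on chromosome 2 (26457903 to 26516663, minus strand, mm10).

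Notch3 is the receptor best known from smooth muscle cells and pericytes of vessels, and it was the receptor with the largest differences here. Its levels were 25.8, 23.0 and 12.4 CPM in pNCC, 174, 104 and 177 CPM in iCEC, and 411, 513 and 422 CPM in pCEC. The 3 groups did not overlap, with pNCC the lowest and pCEC the highest. Notch3 was 7.39-fold higher in iCEC than in pNCC (log2 fold change 2.89, SE 0.328, adjusted p = 0.00235) and 24.2-fold higher in pCEC (4.60, SE 0.292, adjusted p = 1.60e-05). It was also lower in iCEC than in pCEC, by 1.70 on the log2 scale (log2 fold change -1.70, SE 0.254, adjusted p = 0.00766). With pCEC represented by its polyA RNA library alone, that last log2 fold change was -1.46 (adjusted p = 0.257), in a fit that called 0 of all genes. The gene lies on chromosome 17 (32120820 to 32166852, minus strand).

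Markers of pericytes and smooth muscle had their highest sum in pNCC, the group with the lowest Notch3. The 10 markers of that list summed to 2072 to 3541 CPM in pNCC, 129 to 386 CPM in iCEC and 10.7 to 36.0 CPM in pCEC. All 10 were lower in iCEC than in pNCC without overlap, and 7 were lower in pCEC, beside 25.9% and 39.9% of all genes tested. The receptor Pdgfrb of these cells was at 707 to 842 CPM in pNCC, at 0.0595 to 4.22 CPM in iCEC and at 5.89 to 25.8 CPM in pCEC. Pdgfrb and Acta2, at 1253 to 2590 CPM in pNCC, made up most of the pNCC sum. The other markers reached at most 75.7 CPM in pNCC (Cspg4 in pNCC 2), and Rgs5 lay at 0.497 to 0.704 CPM. The sum of 10 vessel endothelium markers was 22.2 to 29.1 CPM in pNCC, 4.70 to 8.91 CPM in iCEC and 10.4 to 21.8 CPM in pCEC.

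Notch2, a receptor of wide expression, differed least. It stood at 122, 113 and 110 CPM in pNCC, at 124, 166 and 77.9 CPM in iCEC, and at 89.2, 88.5 and 89.5 CPM in pCEC. The iCEC libraries spanned both other groups, and the pCEC libraries, within 1.01-fold of each other, all lay below pNCC. The log2 fold change was 0.14 in iCEC against pNCC (SE 0.35, adjusted p = 0.788), with -0.23 without iCEC 2. In pCEC against pNCC it was -0.24 (SE 0.101, adjusted p = 0.0780), and with scaling by library totals alone it was called (adjusted p = 0.0138). In iCEC against pCEC it was 0.37 (SE 0.324, adjusted p = 0.466), and without iCEC 3 it was called (adjusted p = 0.0420). Notch2 lies on chromosome 3 (98013527 to 98150361, plus strand).

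The receptors were set against each other as CPM per kilobase of annotated exon, since the counts of a gene grow with its length. Summed over Notch1, Notch2, Notch3 and Notch4, the receptor level was 15.9 ± 1.60 CPM per kb in pNCC (SD, n = 3), 44.3 ± 9.78 in iCEC and 73.4 ± 9.0 in pCEC. Notch2 held 67.5% ± 4.38 of this sum in pNCC, 26.8% ± 13.4 in iCEC and 11.4% ± 1.36 in pCEC. Notch3 held 15.7% ± 4.12, 42.4% ± 9.59 and 75.5% ± 0.376 in the same order. Thus Notch2 was the leading receptor in each pNCC library and Notch3 in each pCEC library. In iCEC the leading receptor differed by library: Notch1 with 40.3% in iCEC 1, Notch2 with 42.2% in iCEC 2 and Notch3 with 53.3% in iCEC 3. The level of Notch3 divided by that of Notch1 was 0.712 to 1.29 in pNCC, 0.964 to 1.84 in iCEC and 5.23 to 6.23 in pCEC. These ratios depend on the length used and are lower with the longest transcript. Notch1 has 14232 bases of exon and a longest transcript of 9488, against 8089 and 8016 for Notch3. Notch4, a receptor of vessel endothelium, held 1.02% ± 0.295 in pNCC, 0.143% ± 0.0844 in iCEC and 0.0426% ± 0.0297 in pCEC.

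**Figure D2:**
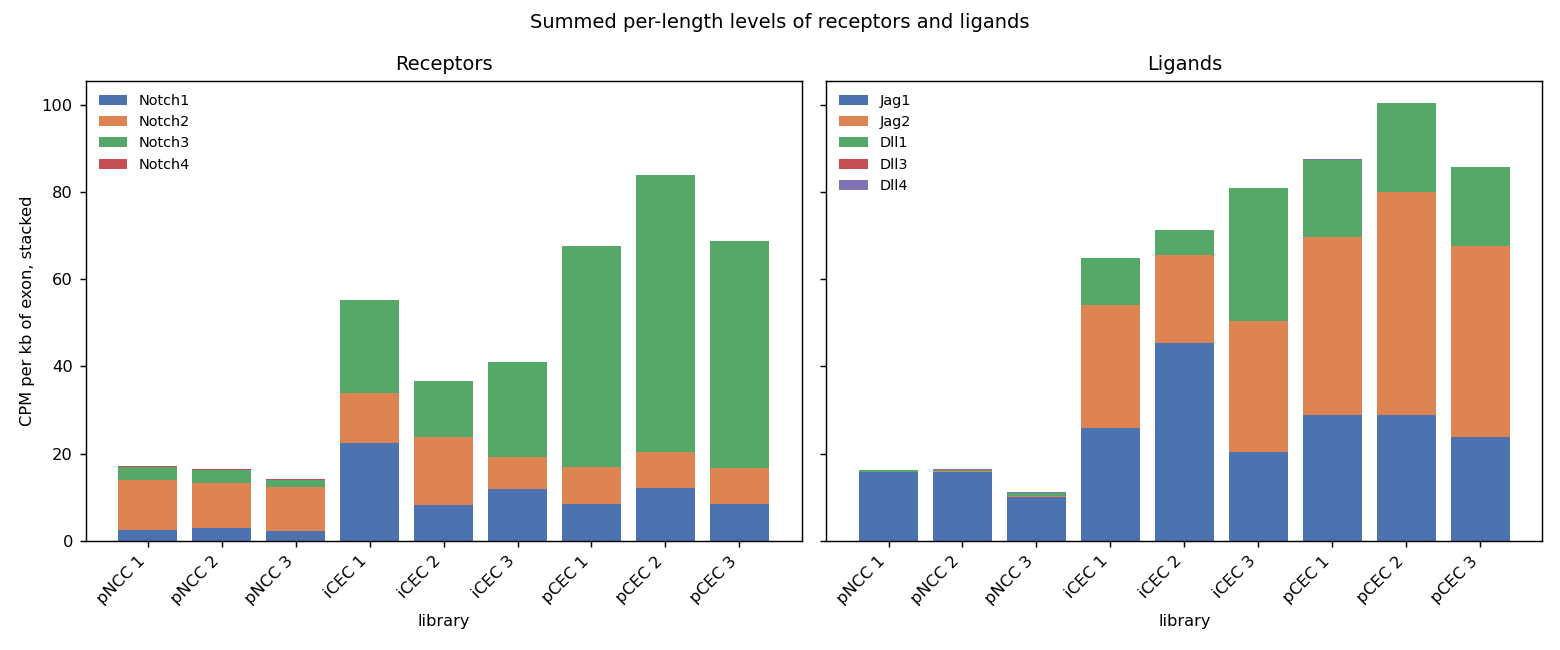
Stacked levels of the receptors (left) and of the ligands (right) in CPM per kilobase of exon, with 1 bar per library. The receptor bars of pCEC reach 67.6 to 83.8 and are mostly Notch3, those of pNCC reach 14.1 to 17.1 and are mostly Notch2, and the ligand bars of pNCC consist almost wholly of Jag1.

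Of the ligands, Jag2, a Jagged ligand expressed in many epithelia, had the largest fold change above pNCC among the 10 genes, in both iCEC and pCEC. It was measured at 0.684, 0.938 and 1.31 CPM in pNCC, at 195, 141 and 209 CPM in iCEC, and at 284, 356 and 304 CPM in pCEC. The groups did not overlap, and the pNCC values rested on 100 counts in all. Jag2 was 183-fold higher in iCEC than in pNCC (log2 fold change 7.51, SE 0.347, adjusted p = 0.000268). It was 348-fold higher in pCEC than in pNCC (8.44, SE 0.303, adjusted p = 1.83e-06). It was lower in iCEC than in pCEC, with a log2 fold change of -0.93 (SE 0.214, adjusted p = 0.0275). That call was lost without iCEC 1 (adjusted p = 0.0568), iCEC 2 (0.0546), pCEC 1 (0.0539), pCEC 2 (0.119) or pCEC 3 (0.104). With the polyA RNA library of pCEC alone, where 0 of all genes were called, the log2 fold change was -0.67 (adjusted p = 0.520). Jag2 lies on chromosome 12 (112907819 to 112929776, minus strand).

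The promoter window of Jag2 is shown because no other of the 10 genes stood as far above pNCC. It spans 250 bases before to 50 after the start of the RefSeq transcript, at chr12:112929446-112929745 on the minus strand of GRCm38.p6, and 86.0% of its bases are G or C, against a median of 52.7% over all promoter windows of the table. None of the motifs searched below was found in it.
Jag2 promoter: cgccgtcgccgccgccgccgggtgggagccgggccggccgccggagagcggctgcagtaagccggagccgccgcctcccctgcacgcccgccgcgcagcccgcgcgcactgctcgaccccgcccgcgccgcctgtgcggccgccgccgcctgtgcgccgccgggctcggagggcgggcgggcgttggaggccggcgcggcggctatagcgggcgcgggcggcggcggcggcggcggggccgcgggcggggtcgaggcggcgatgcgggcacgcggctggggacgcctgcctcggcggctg

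Dll1, a Delta-like ligand known for lateral inhibition between neighbouring progenitor cells, stood at 1.43, 1.23 and 3.25 CPM in pNCC. It stood at 45.6, 24.0 and 129 CPM in iCEC and at 74.9, 85.3 and 76.5 CPM in pCEC. The iCEC libraries spread over 5.37-fold and spanned the pCEC range, and all 6 lay above pNCC. Dll1 was 31.3-fold higher in iCEC than in pNCC (log2 fold change 4.97, SE 0.743, adjusted p = 0.00528), with 4.18 without iCEC 3 and 5.56 without pNCC 3. In pCEC it was 43.2-fold higher (5.43, SE 0.41, adjusted p = 4.15e-05), with 6.03 without pNCC 3. The iCEC and pCEC difference did not pass (log2 fold change -0.43, SE 0.534, adjusted p = 0.606), and without iCEC 3 it was called (-1.22, adjusted p = 0.0202). Dll1 lies on chromosome 17 (15367354 to 15376872, minus strand).

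Jag1, the Jagged ligand mutated in human Alagille syndrome, was present in every library. Its levels were 91.5, 92.3 and 58.1 CPM in pNCC, 151, 264 and 118 CPM in iCEC, and 168, 169 and 139 CPM in pCEC. All iCEC and pCEC libraries lay above pNCC, and the pCEC libraries lay within the iCEC range. In pCEC Jag1 was 2.16-fold higher than in pNCC (log2 fold change 1.11, SE 0.178, adjusted p = 0.00129), which did not pass when tested against a minimum of 2-fold. In iCEC the log2 fold change of 1.20 (SE 0.41) did not pass (adjusted p = 0.0709), and it was called by the DESeq2 Wald test, in a fit of all 9 libraries and without iCEC 3. In iCEC against pCEC it was 0.08 (SE 0.352, adjusted p = 0.898), with -0.36 without iCEC 2. Jag1 lies on chromosome 2 (137081456 to 137116644, minus strand).

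Summed over Jag1, Jag2, Dll1, Dll3 and Dll4, the ligand level was 14.5 ± 3.01 CPM per kb in pNCC (SD, n = 3), 72.4 ± 8.10 in iCEC and 91.2 ± 8.03 in pCEC. Jag1 held 94.6% ± 3.91 of it in pNCC, 42.9% ± 19.4 in iCEC and 29.9% ± 2.75 in pCEC. Jag2 held 1.04% ± 0.581, 36.2% ± 7.49 and 49.5% ± 2.51, and Dll1 held 3.61% ± 2.91, 20.8% ± 15.3 and 20.5% ± 0.542. Jag1 was thus the leading ligand in each pNCC library and Jag2 in each pCEC library. In iCEC no single ligand led: Jag2 held 43.2% and Jag1 40.0% in iCEC 1, Jag1 held 63.5% in iCEC 2, and Dll1 held 37.8% and Jag2 37.1% in iCEC 3. The order in iCEC 3 turned with the longest transcript as gene length (Jag2 41.7% and Dll1 36.7%). Dll3 and Dll4 each held less than 1% in every library.

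Hes1, the HES repressor most often read as a Notch target, was the most abundant of the targets. It stood at 47.99, 56.5 and 48.9 CPM in pNCC, at 73.0, 155 and 93.7 CPM in iCEC, and at 145, 98.7 and 144 CPM in pCEC. All iCEC and pCEC libraries lay above pNCC and overlapped each other. In pCEC Hes1 was 2.76-fold higher than in pNCC (log2 fold change 1.47, SE 0.175, adjusted p = 0.000298). In iCEC the log2 fold change of 1.11 (SE 0.345) missed the threshold (adjusted p = 0.0541), and it was called in 6 of 14 alternatives, among them the removal of any 1 iCEC library. In iCEC against pCEC it was -0.37 (SE 0.346, adjusted p = 0.495). Hes1 lies on chromosome 16 (30064384 to 30067796, plus strand).

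Heyl, a HEY-family repressor found in vascular smooth muscle, went the other way. It was measured at 9.82, 16.8 and 6.45 CPM in pNCC, at 0, 0.109 and 0 CPM in iCEC, and at 0, 0.499 and 0.146 CPM in pCEC. Every pNCC library lay above every other library, and the 3 iCEC libraries together held 4 counts. The ratio of summed counts was 325-fold lower in iCEC than in pNCC (95% counting interval 127 to 1195), 193-fold lower without iCEC 1 and, against a floor of 3 counts per library, at least 145-fold lower without iCEC 2, which held all 4 counts. The fitted log2 fold change was -8.11 (SE 1.28, adjusted p = 0.00617), with -7.47 without iCEC 1 and -11.67 without iCEC 2. In pCEC, with 22 counts, it was -5.47 (SE 0.902, adjusted p = 0.00164), with -4.80 without pCEC 1 and -7.12 without pCEC 2. The markers of pericytes and smooth muscle given above were lower in the same groups, and their part in the difference of Heyl was not tested. Heyl lies on chromosome 4 (123233556 to 123249875, plus strand).

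Hey2, a repressor of heart and artery development, was rare throughout, with 26, 10 and 8 counts in pNCC (0.808, 0.293 and 0.228 CPM). It had 2, 2 and 0 counts in iCEC and none in any pCEC library. All pNCC libraries lay above the rest. Against a floor of 3 counts in each pCEC library, Hey2 was at least 4.71-fold lower in pCEC than in pNCC, and the ratio of summed counts was 12.8-fold lower in iCEC (95% counting interval 4.67 to 49.2). Without pNCC 1, which held 26 of the 44 counts, these were at least 2.77-fold and 7.70-fold (2.54 to 31.3). With no filter on low counts it was called in pCEC (adjusted p = 0.00309) but did not pass in iCEC (adjusted p = 0.0697). Hey2 lies on chromosome 10 (30832359 to 30842801, minus strand).

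Hey1, the third HEY repressor, was also low, and no comparison passed. Its levels were 0.995, 0.528 and 0.171 CPM in pNCC, 0.375, 0 and 2.38 CPM in iCEC, and 0.0598, 0.416 and 0.0730 CPM in pCEC. The groups overlapped, and 80 of the 98 counts in iCEC came from iCEC 3. The log2 fold change was 0.57 in iCEC against pNCC (SE 1.43, adjusted p = 0.796) and -1.46 without iCEC 3. It was -1.42 in pCEC against pNCC (SE 0.902, adjusted p = 0.210), called without pCEC 2 (adjusted p = 0.0497), and 2.05 in iCEC against pCEC (SE 1.61, adjusted p = 0.410). Hey1 lies on chromosome 3 (8663359 to 8667256, minus strand).

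**Figure D3:**
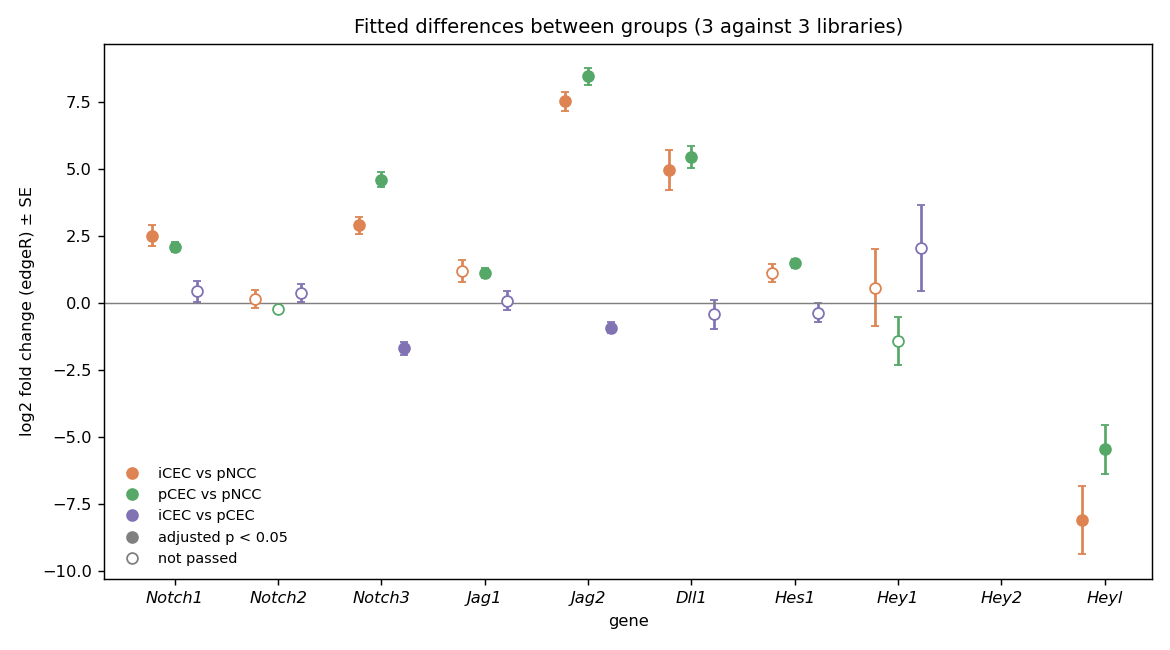
Log2 fold changes from edgeR with bars of 1 SE for the 10 Notch genes in the 3 comparisons of 3 against 3 libraries, filled where the adjusted p was below 0.05 and open where it was not. Jag2 (7.51 and 8.44) and Dll1 (4.97 and 5.43) lie highest against pNCC and Heyl lowest (-8.11 and -5.47), while Hey2 has no point because it did not pass the filter on low counts.

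Nrarp, the ankyrin repeat protein that Notch induces and that limits the receptor's intracellular part, is a further target outside the 10 genes. It had 0 counts in all 3 pNCC libraries, 25.9, 12.2 and 10.7 CPM in iCEC and 16.8, 14.3 and 20.8 CPM in pCEC. Against a floor of 3 counts in each pNCC library it was at least 183-fold higher in iCEC (adjusted p = 0.00324) and at least 195-fold higher in pCEC (adjusted p = 2.93e-05). Nrarp was thus higher in pCEC than in pNCC, while Hey2 had no count in pCEC. Between iCEC and pCEC the log2 fold change of Nrarp, -0.21 (SE 0.41), did not pass (adjusted p = 0.756). Of the other genes listed as targets or HES/HEY relatives, Hes5 had 0 counts in 8 libraries and 2 counts in pCEC 1. Hes6 was 3.06-fold higher in iCEC than in pNCC, at 37.6 ± 2.04 against 12.5 ± 1.99 CPM (SD, n = 3; log2 fold change 1.61, SE 0.218, adjusted p = 0.00376). It stood at 12.5 ± 2.09 CPM in pCEC, below iCEC by a log2 fold change of 1.47 (SE 0.225, adjusted p = 0.00808), a call lost without pCEC 3 (adjusted p = 0.0517).

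Promoter windows were searched on both strands for GTGGGAA and its shorter form TGGGAA, which RBPJ binds, for CACGTG, which HEY proteins bind, and for CACNAG, which HES proteins bind. Of the 10 Notch genes, 7 had a window in the RefSeq table, 8 windows in all since Dll1 has 2. Hes1, Hey1 and Heyl had no window, so Hey2 was the only target among the 10 genes that could be searched. GTGGGAA was found in Hey2 alone, where the base nearest the start of the window lay 207 bases (opposite strand) and 4 bases (same strand) before the transcript start. Both sites also hold TGGGAA. Among all 32851 windows, GTGGGAA was in 6.38%, TGGGAA in 25.6%, CACGTG in 7.15% and CACNAG in 42.5%. CACGTG, which reads the same on both strands, was in no window of the 10 genes and began 108 bases before the start of Nrarp. CACNAG was in the windows of Notch1, Notch2, Notch3 and 1 of the windows of Dll1. It was also in the window of Nrarp, beginning 179 and 79 bases before the start, on the opposite strand. A match describes the letters of the window only.

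The windows of Nrarp and Hey2 are shown as those of a target seen in pCEC but not in pNCC and of a target seen in pNCC but not in pCEC. Capitals mark GTGGGAA or its reverse complement in Hey2 and CACGTG in Nrarp. Hey2 lies at chr10:30842734-30843033 on the minus strand and Nrarp at chr2:25180508-25180807 on the plus strand of GRCm38.p6, both read 5′ to 3′ along the gene.
Hey2 promoter: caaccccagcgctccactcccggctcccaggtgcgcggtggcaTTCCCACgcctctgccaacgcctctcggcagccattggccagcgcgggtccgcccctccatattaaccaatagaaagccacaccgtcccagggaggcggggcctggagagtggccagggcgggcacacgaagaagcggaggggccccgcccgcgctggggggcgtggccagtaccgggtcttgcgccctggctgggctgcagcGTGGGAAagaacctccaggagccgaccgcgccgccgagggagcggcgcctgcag
Nrarp promoter: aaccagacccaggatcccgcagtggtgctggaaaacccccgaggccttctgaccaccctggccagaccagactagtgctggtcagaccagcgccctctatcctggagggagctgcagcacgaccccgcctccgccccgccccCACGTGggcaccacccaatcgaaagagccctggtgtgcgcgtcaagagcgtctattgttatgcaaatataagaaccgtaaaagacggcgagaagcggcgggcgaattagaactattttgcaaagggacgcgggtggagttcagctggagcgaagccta

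Ordered by level per kilobase within each group, Hes1 came first in all 3, at 25.1 ± 2.29 CPM per kb in pNCC (SD, n = 3), 52.7 ± 21.0 in iCEC and 63.3 ± 12.9 in pCEC. In pNCC it was followed by Jag1 (13.8 ± 3.35) and Notch2 (10.7 ± 0.623), whose ranges overlapped. Notch3, Notch1 and Heyl came next, at 2.53, 2.51 and 2.15 CPM per kb with overlapping ranges, and Dll1, Hey1, Jag2 and Hey2 lay below 1. In iCEC the ranges of neighbours overlapped all the way from Hes1 through Jag1, Jag2, Notch3, Dll1 and Notch1 to Notch2 (11.4 ± 4.10), and Hey1, Heyl and Hey2 lay apart below them. In pCEC Hes1, Notch3 (55.5 ± 6.95) and Jag2 (45.2 ± 5.36) overlapped in turn. Below them Jag1 (27.2 ± 2.91), Dll1 (18.7 ± 1.33), Notch1 (9.67 ± 2.13) and Notch2 (8.26 ± 0.0460) each lay apart from their neighbours.

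The patterns were compared over the 9 libraries as the root mean square difference between log2 CPM profiles with a prior count of 2, each centred on its own mean. Jag1 and Hes1 were the closest pair among the 10 genes, at 0.353. Notch1 lay nearest to Jag1 (0.790), Notch3 and Dll1 nearest to each other (1.07), and Jag2 nearest to Dll1 (1.40). Jag2 and Heyl were the farthest apart, at 6.79. Among 10135 genes with a mean of at least 10 CPM, the nearest to Jag2 were Ap1m2, Dsp and Lad1 (0.260 to 0.312) and the nearest to Heyl were Adamts2, Cacna1c and Prrx1 (0.588 to 0.672). The nearest to Notch3 were Kif21a, Ephx2 and Nipal3, to Notch1 Gss, Hyal1 and Gstt3, and to Hes1 Efhd2, Dusp6 and Tmem170b. All these profiles share the 9 libraries and their 3 groups, so the distances describe likeness only.

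Trp63, a transcription factor of stratified epithelia, stood at 1.41 ± 0.441 CPM in pNCC (SD, n = 3), 263 ± 12.3 CPM in iCEC and 353 ± 23.8 CPM in pCEC. Its log2 fold changes against pNCC were 7.56 in iCEC (SE 0.337, adjusted p = 0.000268) and 8.10 in pCEC (SE 0.259, adjusted p = 1.37e-06). Of the 15 surface epithelium markers, 13 were higher than in pNCC without overlap in iCEC, all but Krt12 and Pax6. In pCEC 13 were higher as well, all but Krt8 and Krt18. Among all genes tested, 25.1% lay above pNCC without overlap in iCEC and 30.8% in pCEC. The summed level of the 15 markers was higher than in pNCC in both groups, as were Notch1, Notch3, Jag2 and Dll1. Between iCEC and pCEC the sum was higher in pCEC, as were the means of Notch3, Jag2 and Dll1. The mean of Notch1 was higher in iCEC. Between these groups the differences of Notch1 and Dll1 did not pass. The part of the markers in the differences of those genes was not tested. Sox9, a factor of crest and of epithelial progenitors, was called higher than in pNCC in iCEC but not in pCEC. It stood at 36.5 ± 4.85, 332 ± 203 and 26.0 ± 3.43 CPM in pNCC, iCEC and pCEC (log2 fold change against pNCC 3.14 in iCEC, adjusted p = 0.00391, and -0.35 in pCEC, adjusted p = 0.0961).

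**Figure D4:**
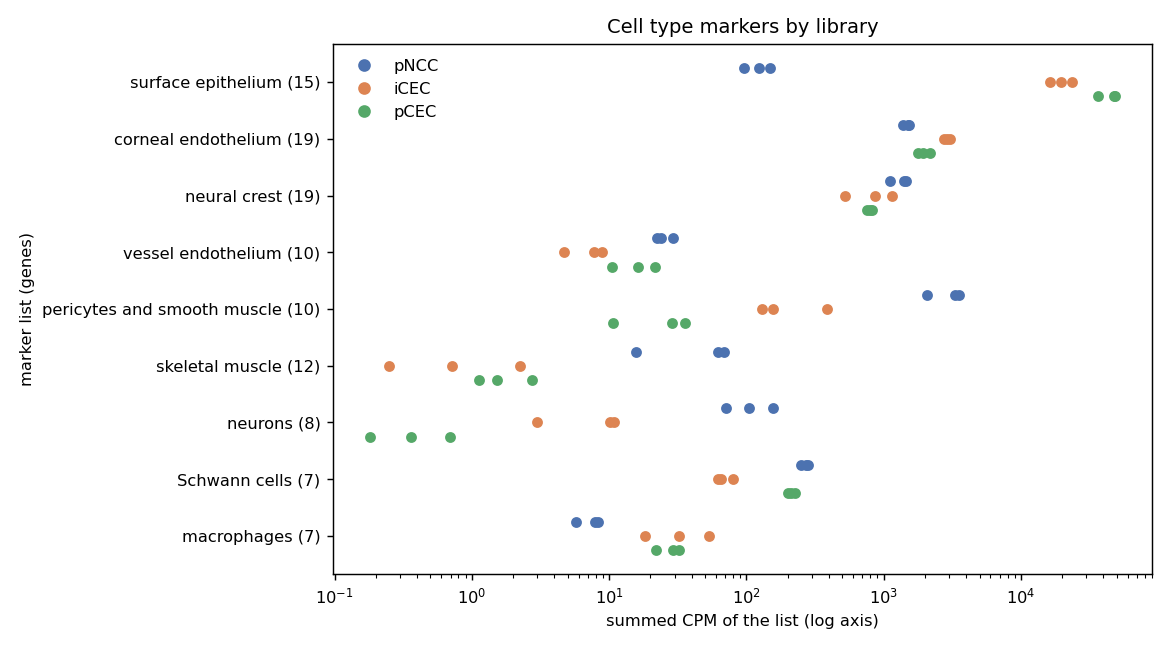
Summed CPM of 9 lists of cell type markers on a log axis, with 1 point per library and the number of genes in the table beside each list. Surface epithelium markers lie at 96.3 to 149 CPM in pNCC at 16314 CPM or more in every iCEC and pCEC library, and markers of pericytes and smooth muscle lie highest in pNCC.

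Beyond the 10 genes, 48 further genes of the pathway were read from the same fits, 40 of which were tested in each comparison. Against pNCC, 13 were higher and 7 lower in iCEC, or 50% of those tested beside 31.3% of all genes, and 13 were higher and 15 lower in pCEC, or 70% beside 62.5%. Between iCEC and pCEC 8 were higher and 3 lower in iCEC, or 27.5% beside 20.4%. Their median log2 fold changes of 0.10, -0.02 and 0.13 lay near those of all genes (0.05, -0.01 and 0.04). The calls held with any 1 library left out for 7 of 20 genes in iCEC against pNCC, 26 of 28 in pCEC against pNCC and 1 of 11 in iCEC against pCEC.

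Among receptors and ligands, Notch4 was lower in pCEC than in pNCC, at 0.244 ± 0.152 against 1.28 ± 0.253 CPM (log2 fold change -2.25, SE 0.517, adjusted p = 0.00694), and in iCEC its log2 fold change of -1.45 did not pass (adjusted p = 0.0942). Dll3 and Dll4 had means below 1 CPM in all groups. The non-canonical ligand Dlk1 was at 52.7 ± 34.8 CPM in pNCC, 0.174 ± 0.151 CPM in iCEC and 1.78 ± 1.20 CPM in pCEC. Its log2 fold change was -8.11 in iCEC (adjusted p = 0.00407) and -4.73 in pCEC (adjusted p = 0.00148), with -7.48 and -4.10 without pNCC 1. Dner, at 3.04 ± 0.838 CPM in pNCC and at 0 in all iCEC libraries, was at least 39.0-fold lower in iCEC (adjusted p = 0.00377). In pCEC its log2 fold change was -5.45 (adjusted p = 0.000429), with -6.28 without pCEC 2. Dlk2, a relative of Dlk1, was higher in both iCEC (22.1 ± 2.43 CPM, log2 fold change 4.28, adjusted p = 0.0193) and pCEC (11.1 ± 0.204 CPM, 3.40, adjusted p = 0.00950) than in pNCC (1.12 ± 1.36 CPM). Without pNCC 3 these were 6.06 and 5.19, and the call in iCEC was lost without pNCC 1 (adjusted p = 0.0602) or pNCC 2 (0.0668). Dlk2 was also higher in iCEC than in pCEC (log2 fold change 0.87, adjusted p = 0.0298), a call lost without iCEC 2 (adjusted p = 0.0541), pCEC 1 (0.105), pCEC 2 (0.131) or pCEC 3 (0.122).

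Of the enzymes that put sugars on the receptors, the Fringe glycosyltransferase Lfng, which alters how a receptor answers to Delta-like and Jagged ligands, was higher in both groups than in pNCC. It stood at 2.03 ± 0.625 CPM in pNCC (SD, n = 3), 32.6 ± 13.6 CPM in iCEC and 25.1 ± 3.46 CPM in pCEC. The log2 fold change was 3.98 in iCEC (SE 0.43, adjusted p = 0.00200) and 3.75 in pCEC (SE 0.28, adjusted p = 3.15e-05), and 0.24 between iCEC and pCEC did not pass (adjusted p = 0.637). Pofut1, which adds the fucose that Fringe enzymes extend, fell from 102 ± 4.94 CPM in pNCC to 39.5 ± 10.3 CPM in iCEC (log2 fold change -1.38, adjusted p = 0.00233). In pCEC it was also lower than in pNCC, at 51.5 ± 10.5 CPM (log2 fold change -0.86, adjusted p = 0.00154). Rfng was higher in pCEC than in pNCC (log2 fold change 1.16, adjusted p = 0.000285) and the glucosyltransferase Poglut1 lower (-1.06, adjusted p = 0.000951). Poglut1 was higher in iCEC than in pCEC (log2 fold change 1.18, adjusted p = 0.0305), a call lost without any 1 of 5 libraries, all but iCEC 3.

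The genes of receptor cleavage and of ligand uptake were called in both directions. Of the 9 cleavage genes, 3 were higher and 1 lower in iCEC than in pNCC, and 2 higher and 3 lower in pCEC. These are 44.4% of them beside 31.3% of all genes tested in iCEC, and 55.6% beside 62.5% in pCEC. The γ-secretase subunit Psenen was higher in both, at 29.6 ± 3.34 CPM in pNCC (SD, n = 3), 60.5 ± 7.09 CPM in iCEC (log2 fold change 1.05, adjusted p = 0.0120) and 52.6 ± 2.83 CPM in pCEC (0.96, adjusted p = 0.000306). Its call in iCEC was lost without pNCC 1 (adjusted p = 0.0564), pNCC 2 (0.0576) or pNCC 3 (0.0626). The protease gene Adam10 was lower in pCEC than in pNCC, at 101 ± 17.4 against 208 ± 11.8 CPM (log2 fold change -0.92, adjusted p = 0.000816). The γ-secretase genes Aph1b and Aph1c share much of their sequence, so their counts are uncertain. Aph1c was higher in iCEC than in pNCC (log2 fold change 2.32, adjusted p = 0.0162) and than in pCEC (2.80, adjusted p = 0.0105), at 3.71 ± 0.885 CPM, with calls lost without any 1 pNCC library in the first and without pCEC 2 or pCEC 3 in the second. Aph1b was higher in iCEC than in pCEC (log2 fold change 1.42, adjusted p = 0.0267) and Psen2 lower in iCEC than in pNCC (-1.05, adjusted p = 0.0280), with calls lost in 4 and 5 of the 6 fits that left out 1 library.

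The ubiquitin ligase Neurl1a, which drives ligand endocytosis, was lower in iCEC (2.56 ± 0.206 CPM, log2 fold change -1.76, adjusted p = 0.00753) and in pCEC (0.783 ± 0.343 CPM, -3.35, adjusted p = 0.000245) than in pNCC (8.71 ± 0.755 CPM). The call in iCEC was lost without pNCC 2 (adjusted p = 0.0567). Its relative Neurl1b was higher in iCEC (log2 fold change 2.76, adjusted p = 0.0278), with 2.08 without iCEC 2 and a call lost in 5 of the 6 fits that left out 1 library. In pCEC Mib1 was lower than in pNCC (log2 fold change -0.82, adjusted p = 0.00336) and Mib2 higher (0.85, adjusted p = 0.00234).

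Rbpj, the DNA-binding partner of all Notch receptors, was at 140, 150 and 141 CPM in pNCC. It was at 40.6, 75.6 and 103 CPM in iCEC and at 56.6, 49.8 and 45.2 CPM in pCEC. Every iCEC and pCEC library lay below pNCC. In pCEC Rbpj fell by 1.38 on the log2 scale (SE 0.107, adjusted p = 3.71e-05), and in iCEC the log2 fold change of -0.99 (SE 0.302) missed the threshold (adjusted p = 0.0511). The coactivator gene Maml3 went up in both, from 6.75 ± 1.90 CPM in pNCC (SD, n = 3) to 29.4 ± 14.5 CPM in iCEC (log2 fold change 2.14, adjusted p = 0.0131) and 47.2 ± 2.59 CPM in pCEC (2.94, adjusted p = 1.96e-05). The call in iCEC was lost without pNCC 1 (adjusted p = 0.0654) or pNCC 3 (0.0626). Rbpjl, the pancreas-type relative of Rbpj, was higher in pCEC than in pNCC, at 7.97 ± 5.13 against 0.0599 ± 0.0321 CPM (log2 fold change 7.12, adjusted p = 0.000264), and iCEC 3 held 5.36 CPM of it beside 0.0208 and 0.109 CPM in iCEC 1 and 2. The acetyltransferase gene Kat2b was higher in iCEC than in pNCC (log2 fold change 1.08, adjusted p = 0.0115) and than in pCEC (0.89, adjusted p = 0.0351). Spen, a corepressor gene, was lower in iCEC than in pCEC (log2 fold change -1.08, adjusted p = 0.0461). The call of Kat2b was lost without pNCC 2 or pNCC 3 in the first comparison and in 4 of 6 fits in the second, and that of Spen in 5 of 6.

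Of the negative regulators, Numbl, a relative of the receptor inhibitor Numb, fell from 102 ± 5.81 CPM in pNCC (SD, n = 3) to 34.3 ± 8.86 CPM in iCEC (log2 fold change -1.59, SE 0.165, adjusted p = 0.00176) and 20.2 ± 5.22 CPM in pCEC (-2.20, SE 0.214, adjusted p = 0.000109). Numb itself was higher than in pNCC in iCEC (log2 fold change 0.62, adjusted p = 0.0345) and in pCEC (1.15, adjusted p = 0.000261), the call in iCEC being lost without iCEC 2 (adjusted p = 0.0609), pNCC 1 (0.129), pNCC 2 (0.133) or pNCC 3 (0.134). The Deltex gene Dtx2 was higher in pCEC than in pNCC, at 53.0 ± 3.20 against 22.03 ± 2.49 CPM (log2 fold change 1.40, adjusted p = 6.99e-05). In iCEC it stood at 22.8 ± 3.36 CPM, below pCEC (log2 fold change -1.33, SE 0.206, adjusted p = 0.00833). Of the 11 further pathway genes called between iCEC and pCEC, only Dtx2 kept its call with any 1 library left out. Dtx3 was higher in iCEC than in pCEC (log2 fold change 1.56, adjusted p = 0.0360), a call lost without iCEC 2 (adjusted p = 0.0716), pCEC 1 (0.122), pCEC 2 (0.0899) or pCEC 3 (0.126). Dtx1 was higher in iCEC than in pNCC, at 4.05 ± 3.18 against 0.180 ± 0.126 CPM (log2 fold change 4.43, adjusted p = 0.0240), with 5.03 without pNCC 1 and a call lost without iCEC 2 (adjusted p = 0.0541), pNCC 1 (0.0712), pNCC 2 (0.0959) or pNCC 3 (0.100).

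**Figure D5:**
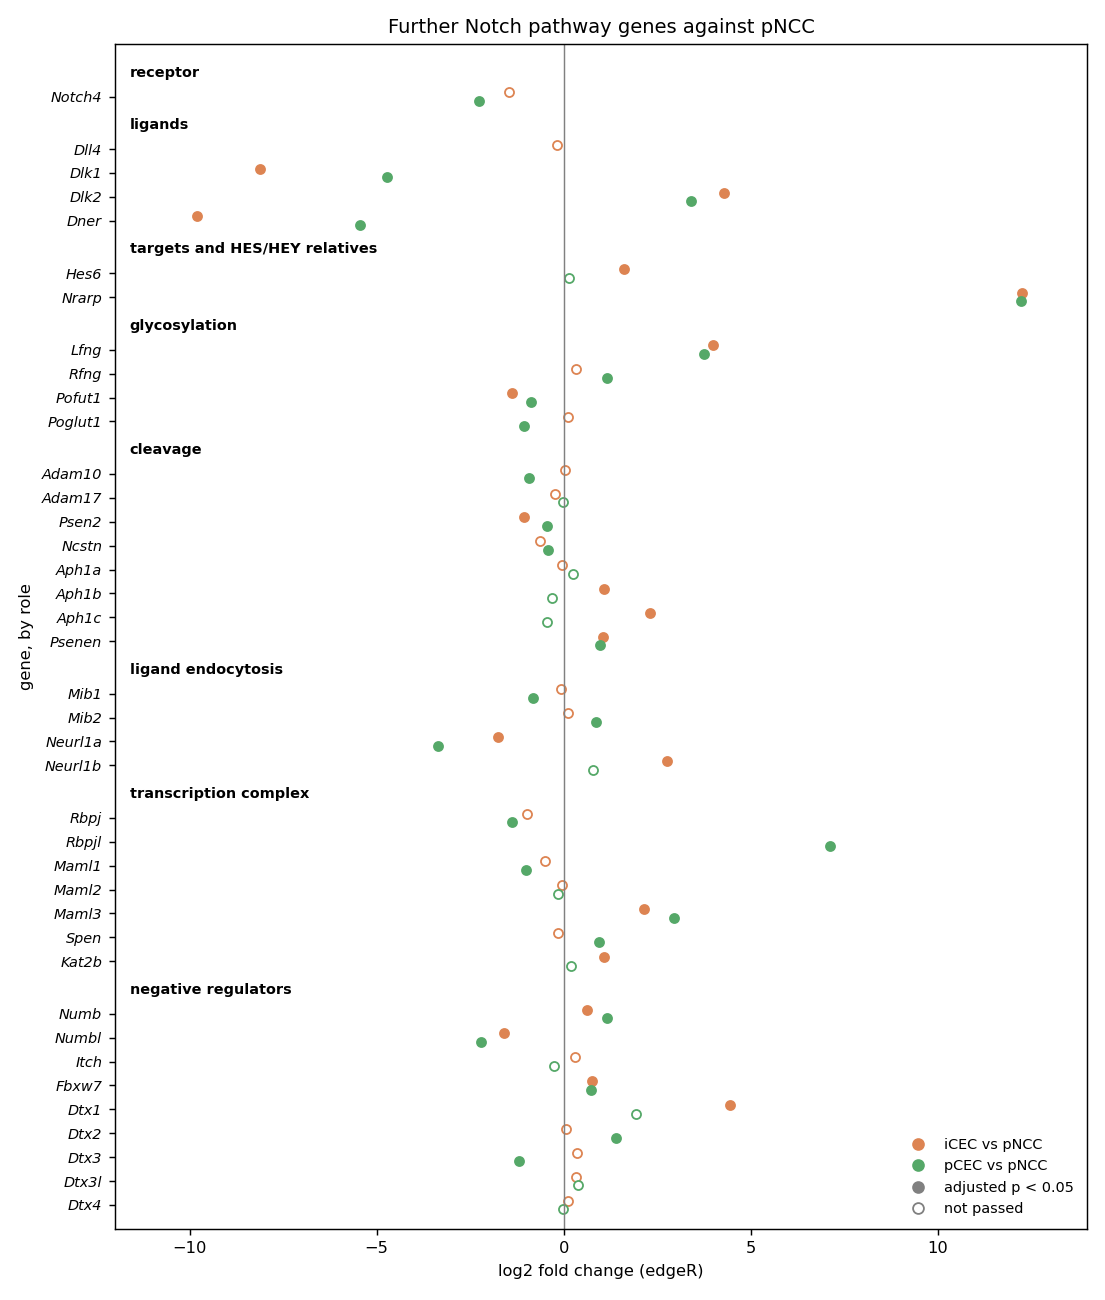
Log2 fold changes from edgeR of further pathway genes, grouped by role, for iCEC against pNCC and pCEC against pNCC, filled where the adjusted p was below 0.05. Nrarp lies farthest to the right in both, and Dlk1 and Dner farthest to the left. The points of genes with 0 counts in 1 group (Nrarp, and Dner in iCEC) depend on the fit's prior count.

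Genes that overlap the Notch genes on either strand and were measured stood below 1 CPM in each group. The highest was Gm17276, opposite Notch3, at 0.949 CPM in pNCC, where Notch3 itself was at 20.4 ± 7.05 CPM (SD, n = 3). Whether the counting used strand is not given in the sources used here. For the further pathway genes the levels of overlapping genes were not examined. Among these, Rbpjl, Psenen and Dlk2 each overlap a protein-coding gene on the opposite strand (Matn4, U2af1l4 and Abcc10).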

How the data were processed

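RNA was sequenced as paired reads of 150 bases from 9 mouse libraries in 3 groups of 3, grouped by sample title. The authors deposited a table of raw counts, 1 row per gene symbol and not normalized. Genome build mm10 and edgeR are named in the submitters' processing notes, and the aligner, counter, annotation and strand setting are not given in the sources used here. In each library 69.1 to 74.5% of the counts from 1 to 10 were even, so 1 count need not be 1 independent fragment, and counting intervals and floors cover counting error only.

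Each pair of groups was fitted in R 4.3.3 with edgeR 4.0.16 on its 6 libraries (filterByExpr, TMM scaling, robust quasi-likelihood fit, group as the only term, 2-sided test). P-values were adjusted by Benjamini-Hochberg over all genes tested. An exact permutation test of 3 against 3 libraries cannot go below p = 0.1. Totals of 27389292 to 47967113 counts put the floor of 3 counts at 0.0625 to 0.110 CPM. Exon lengths and positions came from GENCODE M21 on mm10, promoter windows from RefSeq (GRCm38.p6). The fit was tested on simulated data.

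Alternatives were DESeq2 size factors in edgeR, scaling by library totals alone, the Wald test of DESeq2 1.42.0, low counts left unfiltered, at least 1 CPM in 3 libraries, one fit over all 9 libraries, a block for the replicate number, a minimum of 2-fold, each library left out in turn, pCEC as its polyA RNA library alone, and the longest transcript as gene length. Named were the 10 Notch genes, Notch4, Dll3, Dll4, Hes5, Nrarp, Lfng and Rbpj, per role and comparison up to 3 called pathway genes with the smallest adjusted p, and the 3 nearest genes by pattern. Of the genes this rule takes, 2 are not reported here. Trp63 and Sox9 were named as epithelial context. Single markers (Krt12, Pdgfrb, Acta2, Cspg4, Rgs5, Pax6, Krt8 and Krt18) were chosen after their values were seen. The genes, lists and rules were chosen with earlier results of these data known. Summaries were made with pandas 2.3.3, numpy 2.4.6 and matplotlib 3.10.9 under Python 3.11.15.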

Additional observations from a re-analysis of the deposited data

How the results depend on the processing

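The 13 to 15 alternatives changed the sign of a Notch gene's log2 fold change 7 times, never for a called gene. With the replicate block, Hey1 in iCEC against pNCC was -0.77 and Jag1 in iCEC against pCEC -0.033. With 1 library left out, log2 fold changes in iCEC against pNCC ran from -0.23 (without iCEC 2) to 0.41 for Notch2 and from -1.46 (without iCEC 3) to 1.23 for Hey1. In iCEC against pCEC they ran from -0.091 (without iCEC 1) to 0.71 for Notch1, from -0.36 (without iCEC 2) to 0.37 for Jag1 and from -0.0095 (without iCEC 3) to 3.52 for Hey1. The causes were not tested. All 5 calls of Notch genes in iCEC against pNCC held in every alternative, as did 6 of the 7 in pCEC against pNCC, Jag1 being lost against a minimum of 2-fold.

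Counts of calls moved most where iCEC was compared. In iCEC against pNCC, 5093 genes and 20 pathway genes were called, against 2864 and 11 with the replicate block, 2602 and 11 with a minimum of 2-fold, and 2322 to 7684 and 8 to 24 with 1 library left out, where 5 to 8 Notch genes were called. In pCEC against pNCC a minimum of 2-fold left 5716 of 10382 genes and 12 of 28 pathway genes. In iCEC against pCEC, 3327 genes, 2 Notch genes and 11 pathway genes were called. The replicate block gave 1295, 1 and 2, a minimum of 2-fold 1433, 1 and 1, and leaving out 1 library 1131 to 4974, 1 to 4 and 1 to 12. The DESeq2 Wald test called 17 pathway genes and the fit of all 9 libraries 18. With pCEC as its polyA RNA library alone, assumed to vary like iCEC, edgeR called 0 genes, 0 Notch genes and 0 pathway genes (2529, 1 and 4 at an unadjusted p under 0.05). The replicate numbers did not pair the libraries: deviations of same-numbered libraries correlated at -0.181 to 0.071 over 17616 genes.

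With the longest transcript as length, the receptor shares of Notch1 were 21.6% in pNCC and 18.2% in pCEC, that of Notch2 in pNCC 63.0% and that of Notch3 in pCEC 70.9%. Scaling by library totals alone shifted the median log2 fold change of all genes by -0.13 in pCEC against pNCC and by 0.12 in iCEC against pCEC. Depth limits Hey1 and Hey2, and Heyl outside pNCC, whose values rest on few counts.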
